A study of Bos taurus with 8 samples.

Results

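CDO1 and SELENBP1, both genes of sulfur oxidation, were followed across 8 RNA-seq libraries of Holstein cattle embryos at the 8-cell stage. They were found by their gene symbols and are 2 of the 21258 features listed in every library. Each library was made from a pool of 8 embryos. The groups were 2 libraries of SCNT embryos with KDM4E overexpression (KDM4E-SCNT), 3 of embryos from in vitro fertilisation (IVF) and 3 of SCNT embryos without the overexpression (SCNT), and the series sets each of the other groups against SCNT. In somatic cell nuclear transfer (SCNT) the nucleus of a body cell replaces that of an oocyte, and KDM4E is a histone lysine demethylase. The donor cell type, the way KDM4E was supplied and the recipient oocytes are not given in the sources used here. The genes were chosen for CDO1 being near 0 in SCNT and present in KDM4E-SCNT, so their differences from SCNT are given as a description, without a test. Their difference between KDM4E-SCNT and IVF was tested.

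Cysteine dioxygenase, the product of CDO1, adds oxygen to the thiol of cysteine and forms cysteine sulfinate, the entry to taurine and to sulfate. It is the main route by which mammalian cells remove excess cysteine, and so draws on the pool that also feeds glutathione. SELENBP1 encodes a selenium-binding protein that acts, in human cells, as a methanethiol oxidase: it turns methanethiol, a product of methionine breakdown, into hydrogen sulfide, formaldehyde and hydrogen peroxide.

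Levels are the authors' FPKM, a measure of fragments scaled for transcript length and for the total mapped, which sets genes of unequal length on one scale. FPKM summed to between 702300 and 844200 per library, and 10975 to 13050 features had at least 1 FPKM. The number of reads behind each library is not in these values, so no counting interval is given. Rank correlation (Spearman's rho over the features tested) was 0.886 between both KDM4E-SCNT libraries, 0.885 to 0.925 among IVF libraries and 0.916 to 0.931 among SCNT libraries. Mitochondrially encoded genes took 11.04 and 11.5% of the summed FPKM in KDM4E-SCNT, 6.08 to 7.11% in IVF and 7.54 to 10.6% in SCNT. LOC524768, described in the files as similar to lysine demethylase 4C and taken here as the overexpressed transcript with an uncertain identity, stood at 101.85 and 206.44 FPKM in KDM4E-SCNT, 108.87, 88.34 and 109.12 FPKM in IVF and 25.44, 29.95 and 33.93 FPKM in SCNT. It was higher than in SCNT by 2.26 ± 0.342 (log2 difference ± standard error, adjusted p = 0.00114) in KDM4E-SCNT and by 1.75 ± 0.306 (adjusted p = 0.000383) in IVF. Between KDM4E-SCNT and IVF it was not called (0.51 ± 0.342, adjusted p = 0.449). The labels do not say whether the libraries of a group came from separate rounds of embryo production, so a p-value measures only the spread between these libraries.

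CDO1 (ENSBTAG00000017442.5, chr10:4598736-4606922 in UMD3.1) stood at 59.05 and 149.84 FPKM in KDM4E-SCNT replicates 1 and 2. In IVF it stood at 305.53, 195.16 and 241.45 FPKM. In SCNT it was listed at 0, 0 and 0.01 FPKM, and 0.01 is the lowest value above 0 listed in any library. No library of either other group came near the SCNT values, and both KDM4E-SCNT libraries lay below all 3 IVF libraries. CDO1 averaged 104.4 ± 64.2 FPKM (SD, n = 2) in KDM4E-SCNT and 247.4 ± 55.4 FPKM (SD, n = 3) in IVF, and no fold is given against a group listed at 0. On the log2(FPKM + 1) scale the difference from SCNT was 6.57 in KDM4E-SCNT and 7.93 in IVF.

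Among all features of a library, ordered from the highest FPKM down, CDO1 took places 1699 and 717 in KDM4E-SCNT and places 321, 496 and 413 in IVF. Of the 1492 features with at least 50 FPKM in all 3 IVF libraries, CDO1 alone was under 1 FPKM in all 3 SCNT libraries. It was also the only feature at 0.01 FPKM or less in all SCNT libraries with at least 10 FPKM in each of the other 5, and 15 features met this with at least 1 FPKM. CDO1 was chosen for this pattern, so these counts describe it and are not a separate result. Between 2952 and 5599 features were listed at 0 in each library, so a 0 by itself was common.

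The 2 KDM4E-SCNT libraries differed between themselves: CDO1 reached 23.9% of the IVF mean in replicate 1 and 60.6% in replicate 2. The tested difference of KDM4E-SCNT from IVF was -1.36 ± 0.398 on the log2(FPKM + 1) scale (limma, adjusted p = 0.0635), in a comparison in which 6.52% of the 14839 features tested were called, 5.9% higher and 0.62% lower. The difference was called without KDM4E-SCNT replicate 2, at -2.02 (adjusted p = 0.0118), and was -0.70 (adjusted p = 0.64) without replicate 1, so the call turned on which KDM4E-SCNT library was kept. The SCNT values at 0 added almost no spread to the estimate shared by the groups, and a fit of KDM4E-SCNT and IVF alone gave an adjusted p of 0.129.

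**Figure D1:**
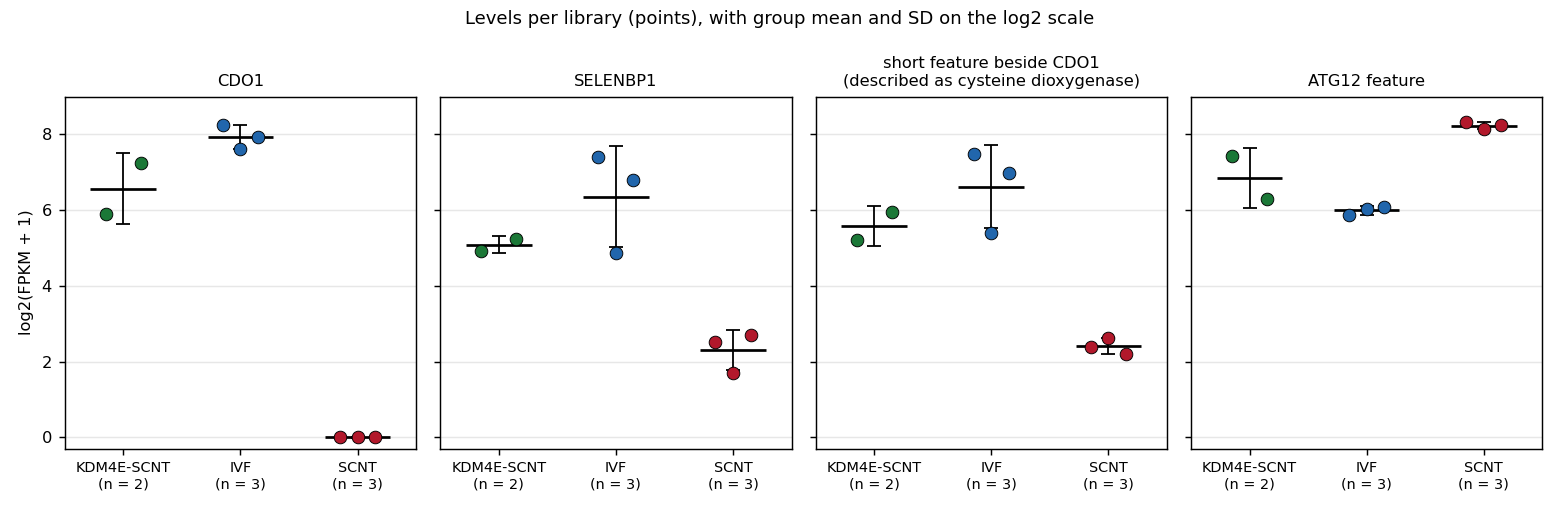
Level of CDO1, SELENBP1, the short feature beside CDO1 and the ATG12 feature, as log2(FPKM + 1), in KDM4E-SCNT, IVF and SCNT. Each point is a library, and the bar and whiskers give the mean and SD on the log2 scale. CDO1 is at 0 in SCNT, the short feature is above 0 in all 8 libraries, and ATG12 is highest in SCNT.

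The files describe 3 features as cysteine dioxygenase type 1, all in one stretch of chromosome 10. Besides CDO1 there is an unnamed feature of 370 bases (ENSBTAG00000048058.1, chr10:4608189-4608558), which begins 1266 bases beyond the end of CDO1. It stood at 35.96 and 60.97 FPKM in KDM4E-SCNT, 178.72, 41.01 and 124.6 FPKM in IVF and 4.23, 5.22 and 3.62 FPKM in SCNT. Unlike CDO1, it was therefore above 0 in every SCNT library, and all KDM4E-SCNT and IVF libraries lay above all SCNT libraries. Its mean was 48.5 ± 17.7 FPKM (SD, n = 2) in KDM4E-SCNT and 115 ± 69.4 FPKM (SD, n = 3) in IVF, against 4.36 ± 0.807 FPKM (SD, n = 3) in SCNT. The KDM4E-SCNT libraries held 31.3 and 53.1% of the IVF mean, and the tested difference from IVF was -1.04 ± 0.514 (adjusted p = 0.289). IVF replicate 2 was the lowest of the IVF libraries for both CDO1 and the short feature.

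The third is the feature of ATG12 (ENSBTAG00000017525.5, chr10:4619383-4799774), which encodes the ubiquitin-like conjugate of autophagy. It spans 180392 bases, holds a transcript assembled by the authors beside the annotated one, and its descriptions name both ATG12 and cysteine dioxygenase. It moved the other way: 170.54 and 77.7 FPKM in KDM4E-SCNT, 57.17, 64.48 and 66.98 FPKM in IVF and 318.44, 281.25 and 301.95 FPKM in SCNT. Both other groups lay below all SCNT libraries, with log2 differences of -1.37 ± 0.336 (adjusted p = 0.00914) in KDM4E-SCNT and -2.24 ± 0.3 (adjusted p = 5.46e-05) in IVF. The KDM4E-SCNT call was lost without its replicate 2, at -0.81 (adjusted p = 0.114). How reads were divided among these 3 features is not given in the sources used here, and whether that division bears on the 0 of CDO1 in SCNT was not tested.

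SELENBP1 (ENSBTAG00000008091.2, chr3:19484700-19493477) stood at 29.34 and 36.89 FPKM in KDM4E-SCNT and at 169.82, 28.11 and 109.3 FPKM in IVF. In SCNT it stood at 4.72, 2.25 and 5.46 FPKM. All 5 libraries of the other groups lay above all SCNT libraries, and SELENBP1 was detected in each SCNT library. It averaged 33.1 ± 5.34 FPKM (SD, n = 2) in KDM4E-SCNT and 102 ± 71.1 FPKM (SD, n = 3) in IVF, against 4.14 ± 1.68 FPKM (SD, n = 3) in SCNT. The means were 7.99 and 24.7 times the SCNT mean in KDM4E-SCNT and IVF, and the log2 differences from SCNT were 2.78 in KDM4E-SCNT and 4.05 in IVF. It is the only feature the files describe as a selenium-binding protein, and it holds an annotated transcript and one assembled by the authors.

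IVF was the uneven group for SELENBP1. Its highest library held 6.04 times its lowest, against 1.57 times for CDO1 in the same 3 libraries, and IVF replicate 2 lay below both KDM4E-SCNT libraries. For CDO1 the uneven group was KDM4E-SCNT, where replicate 2 held 2.54 times replicate 1, against 1.26 times for SELENBP1. In SCNT the highest SELENBP1 value was 2.43 times the lowest. The KDM4E-SCNT libraries held 28.7 and 36.0% of the IVF mean of SELENBP1. The tested difference of KDM4E-SCNT from IVF was -1.27 ± 0.598 (adjusted p = 0.263), and it was called without IVF replicate 2, at -2.02 (adjusted p = 0.0155). By its mean, each gene was highest in IVF and lowest in SCNT, with KDM4E-SCNT in between. The step between IVF and KDM4E-SCNT did not pass the test for either gene, and for SELENBP1 those groups overlapped.

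These pools held whole embryos, so fewer cells or less RNA per cell cannot be told apart. The 13 oocyte and cleavage-embryo markers that were listed all rose in both KDM4E-SCNT and IVF over SCNT, where 21.6% and 34.9% of all features tested rose. Their summed level was 21960 and 26290 FPKM in KDM4E-SCNT, 29620 to 35790 FPKM in IVF and 4913 to 10110 FPKM in SCNT, most of it BTG4 in every library. The summed level of 9 cumulus and granulosa markers was 45.4 and 94.3 FPKM in KDM4E-SCNT, 97.9 to 160 FPKM in IVF and 16.4 to 25.0 FPKM in SCNT, most of it HAS2 and STAR, while CYP19A1, FSHR and AMH were under 1 FPKM in every library. Of the 3 that were tested, 2 rose in KDM4E-SCNT, and 2 rose and 1 fell in IVF. Both summed levels were lowest in SCNT, as were CDO1 and SELENBP1, and the part of these cells in the result was not tested. The summed level of 20 fibroblast markers was 116 FPKM in KDM4E-SCNT replicate 1 and 408 FPKM in replicate 2, 55.5 to 77.8 FPKM in IVF and 131 to 200 FPKM in SCNT, with COL6A1, COL6A2, PDGFRB and FAP under 1 FPKM in every library. Most of the sum in KDM4E-SCNT replicate 2 was LGALS1, LUM and SPARC, at 127.17, 84.6 and 53.32 FPKM, against 10.94, 13.38 and 10.4 FPKM in replicate 1. Of the 14 that were tested, 3 rose and 1 fell in KDM4E-SCNT, and 2 rose and 5 fell in IVF. The KDM4E-SCNT library with more CDO1, replicate 2, had the higher summed level of every marker list read here, not only of the fibroblast list. It also had more features with at least 1 FPKM, 13050 against 12453 in replicate 1. SCNT held more of the fibroblast markers than IVF. The part of fibroblasts in the level of CDO1 was not tested. The summed level of 8 blood markers was 53.2 and 81.2 FPKM in KDM4E-SCNT, 17.7 to 26.2 FPKM in IVF and 73.1 to 139 FPKM in SCNT. Most of it in SCNT was HBA and HBA1, adjacent features with nearly equal values (68.86 FPKM each in SCNT replicate 1), while HBB, CD79A and SPI1 were under 1 FPKM in every library. Of 5 tested, 3 rose and 2 fell in IVF, the latter HBA and HBA1. In KDM4E-SCNT, by limma, 0 were called (1 at an unadjusted p under 0.05). The counts of these marker lists stand beside 21.6% higher and 11% lower in KDM4E-SCNT, and 34.9% and 23.6% in IVF, among all features tested.

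The genes with the profile most like each member were ranked by the root mean square difference of log2(FPKM + 1) over the 8 libraries, after each gene was centred on its own mean. For CDO1 they were TCL1B (1.48), LOC786377 (1.67), SLBP2 (1.74), INPP1 (1.75) and CYBRD1 (1.82), beside a median of 3.46 over 10245 named genes. All 5 were above 0 in every SCNT library, unlike CDO1. They were lower there than in every library of the other groups, but matches picked over all 8 libraries share such a pattern by the choice itself. CYBRD1, a ferric reductase, stood at 20.24 and 31.13 FPKM in KDM4E-SCNT, 45.46, 32.35 and 39.51 FPKM in IVF and 0.93, 1.42 and 2.56 FPKM in SCNT. SELENBP1 came 17th on this list, at 1.96. SLBP2, a stem-loop binding protein for histone mRNA, stood at 640.69 and 1724.31 FPKM in KDM4E-SCNT, and so shared with CDO1 the higher value in replicate 2.

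SELENBP1 had smaller differences from its matches: TRAM2 (0.405), TCL1A (0.426), KPNA7 (0.468), GATSL3 (0.473) and ZP4 (0.479), beside a median of 1.80. Genes were centred but not scaled, so such a difference also grows with the size of a gene's change. That size was larger for CDO1, at 7.93 between IVF and SCNT against 4.05 for SELENBP1, so places in both rankings are not comparable as likeness alone. ZP4, a glycoprotein of the egg coat, stood at 245.19 and 465.53 FPKM in KDM4E-SCNT, 1124.12, 339.32 and 867.5 FPKM in IVF and 49.62, 59.52 and 94.97 FPKM in SCNT. KPNA7, an importin of oocytes and early embryos, stood at 508.96 and 729.58 FPKM in KDM4E-SCNT, 1565.41, 514.38 and 1291.35 FPKM in IVF and 99.42, 88.93 and 140.97 FPKM in SCNT. Each of the 5 shared with SELENBP1 the low IVF replicate 2, which follows from how they were picked and is not a separate result. CDO1 came at place 6048 in this ranking, with the same difference of 1.96 between both genes.

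**Figure D2:**
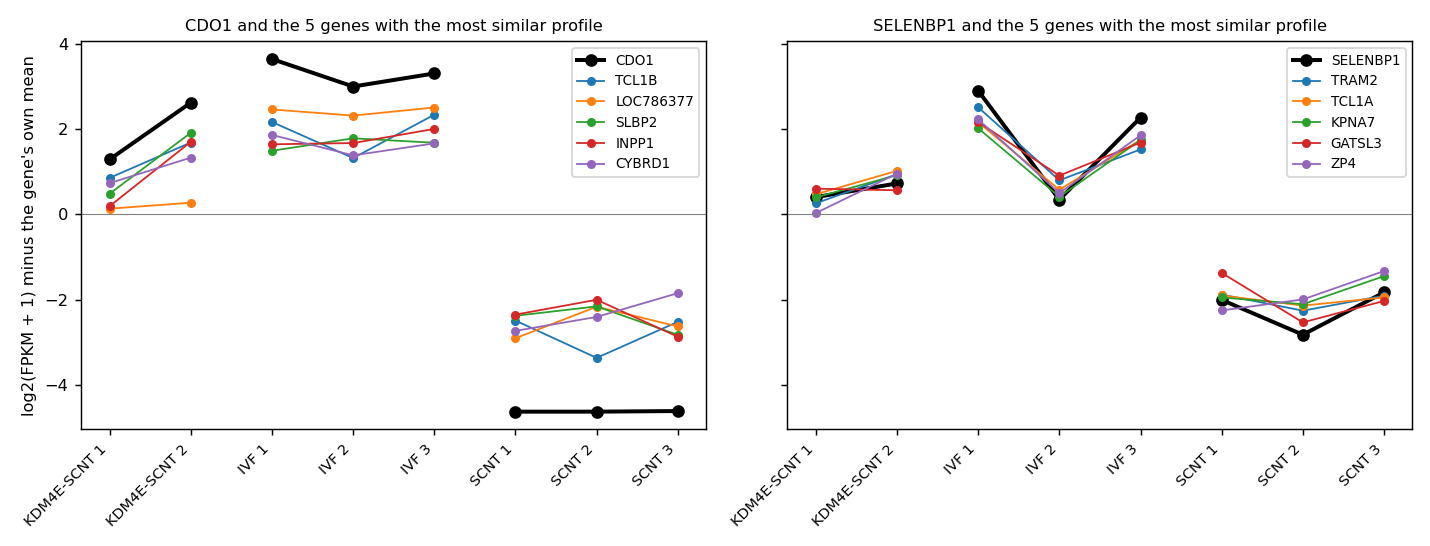
Profiles of CDO1 (left) and SELENBP1 (right), in black, and of the 5 genes most like each, as log2(FPKM + 1) minus the gene's own mean, over 2 KDM4E-SCNT, 3 IVF and 3 SCNT libraries. CDO1 lies further below its mean in SCNT than its matches. SELENBP1 and its matches share a low value in IVF replicate 2, as the matches were picked for closeness over these libraries.

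To see whether the rest of sulfur and selenium metabolism moved with these genes, 110 other genes in 8 lists were looked up. Of these, 90 had a feature, 19 of them below the filter of 1 FPKM in at least 2 libraries, and 71 were tested. In KDM4E-SCNT against SCNT, 13 (18.3%) rose, 12 (16.9%) fell and 46 were not called, beside 21.6% higher and 11% lower among all features tested (32.6% called). In IVF against SCNT, 20 (28.2%) rose, 19 (26.8%) fell and 32 were not called, beside 34.9% higher and 23.6% lower (58.5% called). Some called genes, named below, were under 1 FPKM in every library of a compared group, which built the direction of the call into their being tested. The median log2 difference of the 71 genes was -0.03 in KDM4E-SCNT and -0.11 in IVF, beside 0.32 and 0.39 for all features. Under median-ratio scaling, which brings the median over all features to 0.02 for KDM4E-SCNT and 0.10 for IVF, the split of the list was 8 higher and 17 lower in KDM4E-SCNT and 16 higher and 25 lower in IVF. Of the features called, 43.3% were then higher in KDM4E-SCNT (66.2% with the deposited scale, 49.8% after quantile normalization) and 48.9% in IVF (59.7% with the deposited scale). Under median-ratio scaling, 2109 of 14839 features tested were higher and 2757 lower in KDM4E-SCNT, and 4152 and 4331 in IVF. Without KDM4E-SCNT replicate 2, the list had 5 genes higher and 3 lower in KDM4E-SCNT, and it had 5 lower without SCNT replicate 1, and 8 higher and 7 lower without SCNT replicate 3. The values of both contrasts share the SCNT libraries.

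Around CDO1 itself, 1 of 3 tested genes of cysteine oxidation and taurine synthesis rose in each group, beside 21.6% of all features tested in KDM4E-SCNT and 34.9% in IVF. The mitochondrial transaminase GOT2, which can deaminate cysteine sulfinate, stood at 28.78 and 47.6 FPKM in KDM4E-SCNT, 57.98, 34.38 and 40.78 FPKM in IVF and 18.95, 12.48 and 15.11 FPKM in SCNT. The groups did not overlap with SCNT, and GOT2 rose by 1.22 ± 0.36 (adjusted p = 0.0215) in KDM4E-SCNT and by 1.44 ± 0.322 (adjusted p = 0.00206) in IVF. Its KDM4E-SCNT call was lost without KDM4E-SCNT replicate 2 (adjusted p = 0.197), SCNT replicate 2 (0.0578) or SCNT replicate 3 (0.059), and under median-ratio scaling (0.107). The cytosolic GOT1 differed from SCNT by -0.34 ± 0.343 in KDM4E-SCNT and 0.02 ± 0.307 in IVF, and was not called in either group. FMO1, which oxidises hypotaurine to taurine, was at most 4.63 FPKM and was not called in KDM4E-SCNT (0.62 ± 0.583) or IVF (0.86 ± 0.522, called without IVF replicate 2 at an adjusted p of 0.0487). CSAD and GADL1, decarboxylases of the step to hypotaurine, the taurine carrier SLC6A6 and the cystine carrier SLC7A11 were below the filter.

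Of 9 tested genes of sulfide and methanethiol oxidation, the company of SELENBP1, 1 rose and 1 fell in KDM4E-SCNT and 1 rose and 3 fell in IVF. Among all features tested, 21.6% rose and 11% fell in KDM4E-SCNT, and 34.9% rose and 23.6% fell in IVF. ETHE1, the mitochondrial persulfide dioxygenase, stood at 4.52 and 5.03 FPKM in KDM4E-SCNT, 2.73, 1.74 and 1.32 FPKM in IVF and 19.23, 5.79 and 5.29 FPKM in SCNT. It fell in IVF, with a log2 difference of -1.73 ± 0.444 (adjusted p = 0.00496), and was not called in KDM4E-SCNT (-0.72 ± 0.496). TSTD1, a thiosulfate sulfurtransferase, likewise fell in IVF (-1.73 ± 0.311, adjusted p = 0.000461) and not in KDM4E-SCNT (-0.90 ± 0.348, adjusted p = 0.0631, which ranged from 0.0105 to 0.0475 in the settings that called it). TSTD2, listed as a related sulfurtransferase, stood at 2.74 and 3.57 FPKM in KDM4E-SCNT, 4.69, 2.68 and 0.82 FPKM in IVF and 0.73, 0.26 and 0.72 FPKM in SCNT, and rose by 1.41 ± 0.479 (adjusted p = 0.039) in KDM4E-SCNT and 1.12 ± 0.429 (adjusted p = 0.0395) in IVF. TSTD2, the 1 gene of this list that rose, passed the filter only through KDM4E-SCNT and IVF, so a rise was built into its being tested. Its KDM4E-SCNT call was lost without any one of the KDM4E-SCNT or SCNT libraries (adjusted p of 0.073 to 0.19), and its IVF call without IVF replicate 1 or 2 or any SCNT library (0.0683 to 0.162). Both calls of TSTD2 were also lost after quantile normalization (0.149 in KDM4E-SCNT and 0.156 in IVF), under median-ratio scaling (0.0759 and 0.083) and without a filter (0.0698 and 0.0664). MOCOS, which activates the cofactor of molybdenum enzymes, was listed at 0 and 0.07 FPKM in KDM4E-SCNT and at 0 in all IVF libraries, against 2.06, 1.67 and 0.61 FPKM in SCNT. It was called lower in both groups (limma, adjusted p = 0.04 and 0.0109). MOCOS passed the filter only through SCNT replicates 1 and 2, so a fall was built into its being tested. Without either of those libraries, or with the filter of 5 FPKM, it was not tested. The KDM4E-SCNT call of MOCOS was lost without KDM4E-SCNT replicate 1 or 2 (0.113 and 0.134) or IVF replicate 3 (0.0554). The sulfite oxidase SUOX and the sulfurtransferase TST were not called in either group.

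On the supply side of CDO1, the largest rise was that of CTH, cystathionine gamma-lyase, which makes cysteine and can release sulfide. CTH stood at 26.91 and 26.24 FPKM in KDM4E-SCNT, 72.97, 35.21 and 75.41 FPKM in IVF and 3.74, 6.42 and 5.25 FPKM in SCNT. Its groups did not overlap with SCNT. It rose by 2.19 ± 0.39 (adjusted p = 0.00201) in KDM4E-SCNT and by 3.29 ± 0.349 (adjusted p = 1.03e-05) in IVF, and kept its call in all alternatives. CBS, the enzyme of the step before it, stood at 2.56 and 2.94 FPKM in KDM4E-SCNT, 3.56, 3.93 and 2.18 FPKM in IVF and 0.9, 1.06 and 0.88 FPKM in SCNT. CBS rose in IVF (1.09 ± 0.337, adjusted p = 0.0141, lost after quantile normalization at 0.0856 and median-ratio scaling at 0.0501) and was not called in KDM4E-SCNT (0.95 ± 0.377, adjusted p = 0.0703). MPST, which makes sulfide from mercaptopyruvate, fell in IVF (-1.97 ± 0.52, adjusted p = 0.00586) and was not called in KDM4E-SCNT (-1.06 ± 0.582, adjusted p = 0.176, or 0.0476 without SCNT replicate 2). SDSL, related to serine dehydratase, was not called in KDM4E-SCNT (0.0199 without its replicate 1) or IVF (0.0488 without IVF replicate 2). In all, 1 of 5 tested genes of this list rose in KDM4E-SCNT, and 2 rose and 1 fell in IVF. All features tested had 21.6% higher in KDM4E-SCNT, and 34.9% higher and 23.6% lower in IVF.

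In the methionine cycle, whose breakdown products feed both oxidation routes, 4 of 11 tested genes rose and 2 fell in each of both groups. The shares of all features tested were 21.6% higher and 11% lower in KDM4E-SCNT, and 34.9% higher and 23.6% lower in IVF. MTRR, which keeps methionine synthase active, stood at 16.14 and 14.41 FPKM in KDM4E-SCNT, 11.91, 14.96 and 19.01 FPKM in IVF and 1.45, 2.91 and 3.38 FPKM in SCNT. It rose by 2.23 ± 0.381 (adjusted p = 0.00178) in KDM4E-SCNT and 2.21 ± 0.341 (adjusted p = 0.000152) in IVF. BHMT, which remethylates homocysteine with betaine, rose by 1.81 ± 0.462 (adjusted p = 0.0111) and 2.48 ± 0.413 (adjusted p = 0.00026) in KDM4E-SCNT and IVF, and MAT2B, a regulatory subunit for S-adenosylmethionine synthesis, by 1.11 ± 0.269 (adjusted p = 0.00891) and 1.46 ± 0.241 (adjusted p = 0.000248). The catalytic subunit MAT2A fell, with log2 differences of -0.91 ± 0.302 (adjusted p = 0.0365) in KDM4E-SCNT and -1.64 ± 0.271 (adjusted p = 0.000243) in IVF. GNMT, a methyltransferase that uses up S-adenosylmethionine, stood at 26.82 and 5.33 FPKM in KDM4E-SCNT, 0, 2.08 and 2.09 FPKM in IVF and 61.53, 27.41 and 88.45 FPKM in SCNT, and fell, with log2 differences of -2.03 ± 0.675 (adjusted p = 0.036) and -4.68 ± 0.604 (adjusted p = 4.16e-05) in KDM4E-SCNT and IVF. Without KDM4E-SCNT replicate 2 the KDM4E-SCNT calls of BHMT (adjusted p = 0.072), MAT2B (0.0711), MAT2A (0.206) and GNMT (0.404) were lost. The call of MAT2A was also lost without SCNT replicate 1, 2 or 3 (0.104, 0.0696 and 0.063) or with one total per library without mitochondrially encoded genes (0.0661), that of GNMT without SCNT replicate 1 or 3 (0.0929 and 0.124), with a pseudocount of 0.1 (0.186) or without a filter (0.0889), and that of MAT2B under median-ratio scaling (0.092).

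Glutathione, the other main use of cysteine, had 2 of 9 tested genes higher in KDM4E-SCNT, and 6 higher and 1 lower in IVF. Over all features tested, 21.6% were higher in KDM4E-SCNT, and 34.9% were higher and 23.6% lower in IVF. Of those higher in IVF, GSS and GGT5 were under 1 FPKM in all SCNT libraries and passed the filter only through the other groups. The 1 that fell, CHAC2, was at 0 in all IVF libraries and passed only through SCNT and KDM4E-SCNT. The direction of these 3 calls was therefore built into the genes being tested. GGCT, gamma-glutamylcyclotransferase, stood at 232.12 and 414.32 FPKM in KDM4E-SCNT, 419.69, 470.21 and 400.34 FPKM in IVF and 36.28, 49.07 and 32.39 FPKM in SCNT. It rose by 2.97 ± 0.322 (adjusted p = 0.000422) in KDM4E-SCNT and by 3.44 ± 0.288 (adjusted p = 2.2e-06) in IVF, in all alternatives. CHAC1, which degrades glutathione, rose by 2.17 ± 0.458 (adjusted p = 0.0046, lost without KDM4E-SCNT replicate 2 at 0.0616) and 2.73 ± 0.41 (adjusted p = 0.000125) in KDM4E-SCNT and IVF. The synthesis genes GCLC (1.11 ± 0.345, adjusted p = 0.0148), GCLM (1.82 ± 0.399, adjusted p = 0.00186) and GSS (1.95 ± 0.579, adjusted p = 0.0116) rose in IVF. In KDM4E-SCNT their differences of 0.50, 1.11 and 0.65 were not called, though GCLM was called without KDM4E-SCNT replicate 1 (adjusted p = 0.018). GSS lost its IVF call without IVF replicate 1 (adjusted p = 0.0559), where it was highest, and GCLC without IVF replicate 3 (0.0548), SCNT replicate 3 (0.0837) or under median-ratio scaling (0.101).

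**Figure D3:**
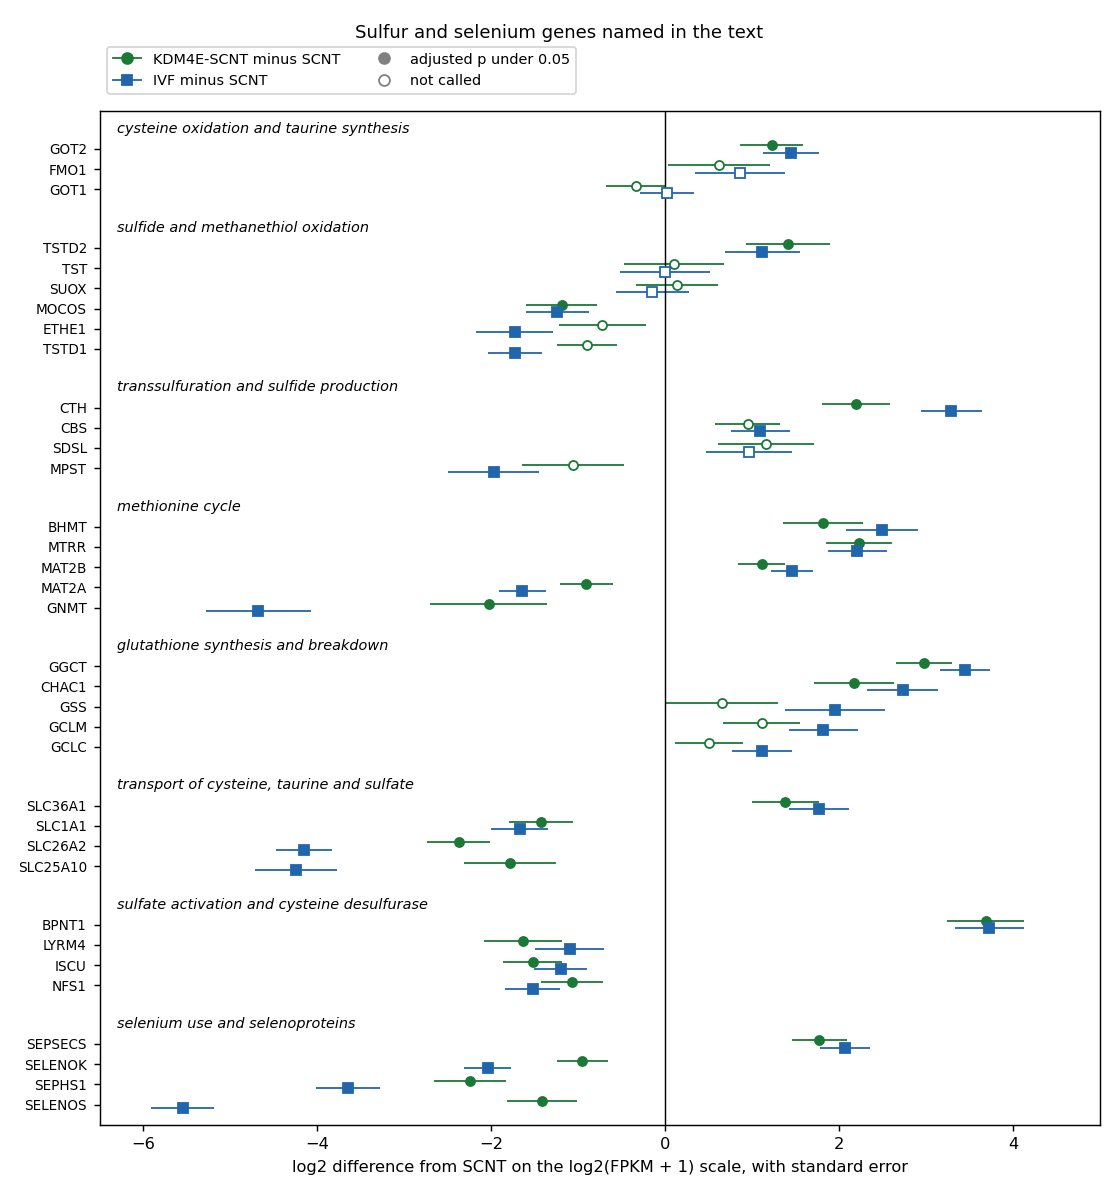
Log2 difference from SCNT, with its standard error, of the sulfur and selenium genes named in the text, grouped by role, for KDM4E-SCNT (circles) and IVF (squares). Filled marks passed the test at an adjusted p under 0.05; CTH, MTRR, GGCT, BPNT1 and SEPSECS lie above 0 and SEPHS1 and SLC26A2 below it in both groups.

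Carriers moved both ways, 2 of 12 higher and 3 lower in KDM4E-SCNT and 4 higher and 3 lower in IVF. For all features tested these shares were 21.6% and 11% in KDM4E-SCNT and 34.9% and 23.6% in IVF. Among the carriers counted higher, SLC7A9 (in both groups) and SLC1A4 (in IVF) were under 1 FPKM in all SCNT libraries. They passed the filter only through the other groups, so a rise was built into their being tested. The sulfate carrier SLC26A2 stood at 6.85 and 3.99 FPKM in KDM4E-SCNT, 0.56, 1.04 and 0.91 FPKM in IVF and 28.54, 32.63 and 33.2 FPKM in SCNT, and fell, with log2 differences of -2.37 ± 0.361 (adjusted p = 0.00117) in KDM4E-SCNT and -4.15 ± 0.323 (adjusted p = 1.33e-06) in IVF. SLC25A10, a mitochondrial carrier of dicarboxylates, sulfate and thiosulfate, stood at 12.19 and 6.16 FPKM in KDM4E-SCNT, 0, 1.09 and 1.65 FPKM in IVF and 51.96, 17.55 and 37.52 FPKM in SCNT, and fell, with log2 differences of -1.79 ± 0.529 (adjusted p = 0.0219) and -4.25 ± 0.474 (adjusted p = 1.44e-05). Both were called higher in KDM4E-SCNT than in IVF, by 1.78 ± 0.361 (adjusted p = 0.00945) for SLC26A2 and 2.46 ± 0.529 (adjusted p = 0.0133) for SLC25A10. Without KDM4E-SCNT replicate 1 those differences were not called (adjusted p = 0.14 and 0.211), and that of SLC26A2 was not called in a fit of only those groups (0.065). The cysteine and glutamate carrier SLC1A1 fell in KDM4E-SCNT (-1.43 ± 0.368, adjusted p = 0.0114) and IVF (-1.67 ± 0.329, adjusted p = 0.000874), and the amino acid carrier SLC36A1 rose (1.38 ± 0.388, adjusted p = 0.0173, and 1.77 ± 0.347, adjusted p = 0.000867). In KDM4E-SCNT the call of SLC25A10 ended without KDM4E-SCNT replicate 2 (adjusted p = 0.196), SCNT replicate 1 (0.0851) or SCNT replicate 3 (0.0682), with a pseudocount of 0.1 (0.17) and without a filter (0.0539), that of SLC1A1 without KDM4E-SCNT replicate 2 (0.0795) or SCNT replicate 1 (0.05), and that of SLC36A1 without KDM4E-SCNT replicate 2 (0.117) or SCNT replicate 3 (0.0686) and after quantile normalization (0.0779).

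Among 10 tested genes of sulfate activation and cysteine desulfuration, 1 rose and 3 fell in KDM4E-SCNT, and the counts were the same in IVF. Of all features tested, 21.6% rose and 11% fell in KDM4E-SCNT, and 34.9% rose and 23.6% fell in IVF. BPNT1, a phosphatase that clears the by-product of sulfation, stood at 20.07 and 57.12 FPKM in KDM4E-SCNT, 33.75, 45.22 and 27.95 FPKM in IVF and 1.63, 2.44 and 1.24 FPKM in SCNT. Its rise of 3.68 ± 0.441 (adjusted p = 0.000573) in KDM4E-SCNT and 3.72 ± 0.395 (adjusted p = 1.03e-05) in IVF was the largest among the named pathway genes in both groups, beside log2 differences of 2.78 in KDM4E-SCNT and 4.05 in IVF for SELENBP1. The genes that fell belong to the desulfurase complex, which takes sulfur from cysteine for iron-sulfur clusters: the desulfurase NFS1 (-1.07 ± 0.354, adjusted p = 0.0349, and -1.52 ± 0.316, adjusted p = 0.00128, in KDM4E-SCNT and IVF), its scaffold ISCU (-1.53 ± 0.337, adjusted p = 0.0057, and -1.20 ± 0.301, adjusted p = 0.0043) and its partner LYRM4 (-1.63 ± 0.444, adjusted p = 0.0149, and -1.10 ± 0.398, adjusted p = 0.0307). In KDM4E-SCNT, NFS1 lost its call without any one of the KDM4E-SCNT and SCNT libraries (adjusted p of 0.0596 to 0.17), ISCU without KDM4E-SCNT replicate 2 (0.0572) and LYRM4 without KDM4E-SCNT replicate 1 (0.144) or SCNT replicate 3 (0.051). In IVF, LYRM4 lost its call without IVF replicate 1 or 3 or any SCNT library (0.0547 to 0.11), without a filter (0.0554) and with one total per library without mitochondrially encoded genes (0.0605), a setting that also ended the KDM4E-SCNT call of NFS1 (0.057).

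Of 12 tested selenium genes, 1 rose and 3 fell in KDM4E-SCNT, and 1 rose and 6 fell in IVF. Beside these counts, 21.6% of all features tested rose and 11% fell in KDM4E-SCNT, and 34.9% rose and 23.6% fell in IVF. SELENOS, a selenoprotein of endoplasmic reticulum quality control, stood at 124.2 and 69.74 FPKM in KDM4E-SCNT, 3.37, 3.43 and 7.1 FPKM in IVF and 312.33, 172.29 and 292.3 FPKM in SCNT. It fell, with log2 differences of -1.42 ± 0.404 (adjusted p = 0.0183) in KDM4E-SCNT and -5.54 ± 0.361 (adjusted p = 5.34e-07) in IVF, and was higher in KDM4E-SCNT than in IVF by 4.13 ± 0.404 (adjusted p = 0.000123). SEPHS1, of the selenophosphate synthetase family, fell, with log2 differences of -2.25 ± 0.414 (adjusted p = 0.00236) and -3.64 ± 0.37 (adjusted p = 7.65e-06) in KDM4E-SCNT and IVF. SELENOK fell, with log2 differences of -0.95 ± 0.297 (adjusted p = 0.0276) and -2.04 ± 0.265 (adjusted p = 4.35e-05). SEPSECS, which makes the selenocysteine of its tRNA, was the one that rose, by 1.77 ± 0.319 (adjusted p = 0.00213) and 2.06 ± 0.285 (adjusted p = 6.83e-05). In KDM4E-SCNT the call of SELENOS ended without KDM4E-SCNT replicate 2 (adjusted p = 0.186), SCNT replicate 1 (0.0663) or SCNT replicate 3 (0.0663), and that of SELENOK without KDM4E-SCNT replicate 2 (0.235) or SCNT replicate 1 or 2 (0.0727 and 0.0711), after quantile normalization (-0.48, adjusted p = 0.228) and in a fit of only those groups (0.0548). Of all 71 genes, 5 (7.04%) were higher in KDM4E-SCNT than in IVF, namely GNMT, SLC25A10, SLC26A2, SELENOK and SELENOS, and 0 were lower by limma (1 at an unadjusted p under 0.05). These shares are near the 5.9% higher and 0.62% lower among all features tested. The number higher was 1 without KDM4E-SCNT replicate 1 and 3 without IVF replicate 1 or SCNT replicate 1, and 3 were lower without IVF replicate 2. GNMT differed by 2.65 ± 0.675 (adjusted p = 0.034), a call lost without KDM4E-SCNT replicate 1 (0.485), IVF replicate 1 (0.113) or SCNT replicate 1 (0.0515), with a pseudocount of 0.1 (0.0781), without a filter (0.11) and in a fit of only those groups (0.0831). SELENOK differed by 1.09 ± 0.297 (adjusted p = 0.0459), a call lost without any one library but KDM4E-SCNT replicate 2 (0.0601 to 0.421), without a filter (0.0854), after quantile normalization (0.0793), under median-ratio scaling (0.0787) and in a fit of only those groups (0.117).

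The annotated features within 300 kb of each gene were read in the same fit. Around CDO1, leaving aside the short feature, 2 of 5 tested neighbours fell in KDM4E-SCNT and 3 fell in IVF, beside 11% and 23.6% lower among all features tested. By limma 0 rose in either group, also at an unadjusted p under 0.05. TMED7, a protein of vesicle traffic 180.2 kb below CDO1, stood at 76.98 and 49.2 FPKM in KDM4E-SCNT, 36.22, 22.83 and 30.51 FPKM in IVF and 99.86, 146.28 and 175.49 FPKM in SCNT. TMED7 fell, with log2 differences of -1.14 ± 0.353 (adjusted p = 0.0267) in KDM4E-SCNT and -2.18 ± 0.316 (adjusted p = 9.4e-05) in IVF. TICAM2, an adaptor of Toll-like receptors 206.9 kb below, fell in IVF (-1.41 ± 0.318, adjusted p = 0.00222) and was not called in KDM4E-SCNT (-0.94 ± 0.356, adjusted p = 0.058; called after quantile normalization and median-ratio scaling at 0.0134 and 0.0149). ATG12, the other neighbour that fell, begins 12.46 kb above CDO1. FEM1C, 263.8 kb below, and ARL14EPL, 265.9 kb above, were not called in KDM4E-SCNT (0.15 ± 0.353 and 0.20 ± 0.639) or IVF (-0.40 ± 0.316 and 0.40 ± 0.571). In KDM4E-SCNT the call of TMED7 was lost without KDM4E-SCNT replicate 2 (0.211), SCNT replicate 2 (0.0603) or SCNT replicate 3 (0.101) and without a filter (0.0501), and the count of neighbours that fell was 0 without KDM4E-SCNT replicate 2.

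Around SELENBP1, 4 of 17 tested neighbours rose and 3 fell in KDM4E-SCNT, and 7 rose and 6 fell in IVF, beside 21.6% higher and 11% lower in KDM4E-SCNT and 34.9% higher and 23.6% lower in IVF among all features tested. TMOD4, counted as a fall in both groups, was at 0 and 0.24 FPKM in KDM4E-SCNT and at 0 in all IVF libraries. In SCNT it was at 1.04, 1.44 and 1.58 FPKM. It passed the filter only through SCNT, so a fall was built into its being tested. RFX5, a transcription factor of class II antigen genes 12.19 kb above SELENBP1, stood at 7.07 and 7.77 FPKM in KDM4E-SCNT, 9.77, 8.85 and 7.14 FPKM in IVF and 0.8, 2.65 and 0.9 FPKM in SCNT. RFX5 rose by 1.86 ± 0.403 (adjusted p = 0.0052) in KDM4E-SCNT and 2.04 ± 0.36 (adjusted p = 0.000409) in IVF. PSMB4, a proteasome subunit 70.1 kb below, fell, with log2 differences of -1.85 ± 0.346 (adjusted p = 0.00254) and -3.35 ± 0.31 (adjusted p = 3.96e-06) in KDM4E-SCNT and IVF. POGZ, 73.85 kb below, rose by 1.04 ± 0.37 (adjusted p = 0.0457) and 1.41 ± 0.331 (adjusted p = 0.00277), and its KDM4E-SCNT call was lost without any one of the 8 libraries but IVF replicate 2 and SCNT replicate 2 (adjusted p of 0.0509 to 0.246), without a filter (0.061), after quantile normalization (0.219), under median-ratio scaling (0.165) and in a fit of only those groups (0.065). PI4KB, 37.19 kb above, was not called in either group. Without KDM4E-SCNT replicate 2 the KDM4E-SCNT counts were 2 higher and 1 lower, and 1 was lower without SCNT replicate 1 or 3. Median-ratio scaling gave 2 higher and 5 lower in KDM4E-SCNT.

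**Figure D4:**
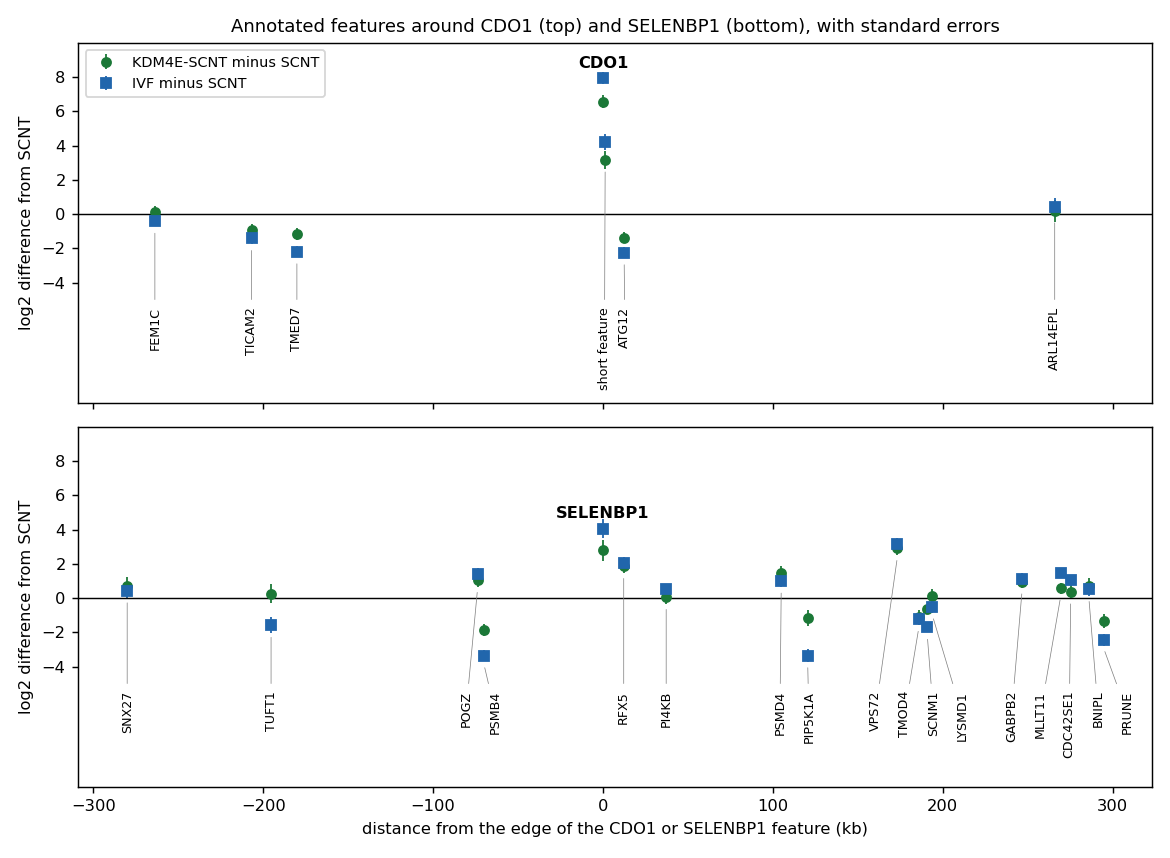
Log2 difference from SCNT, with its standard error, of annotated features that were tested within 300 kb of CDO1 (top) and SELENBP1 (bottom), against the distance in kb from the edge of each gene, for KDM4E-SCNT (circles) and IVF (squares). Around CDO1 only the short feature lies above 1, at 3.17 in KDM4E-SCNT and 4.21 in IVF, and around SELENBP1 the marks lie on both sides of 0.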

How the data were processed

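RNA-seq libraries of 8-cell cattle embryos were compared as the labels group them. The authors deposited FPKM per feature, to 2 decimals. Amplification of poly(A)-tailed cDNA came before fragmentation, per the labels' protocols, and can add to the spread of low values. Build UMD3.1 and, without roles, RSEM 1.2.12, StringTie 1.0.4, HISAT 0.1.6 and Bowtie2 2.2.5 stand in the submitters' processing notes. Depth, strandedness and the handling of shared reads are not given in the sources used here.

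From these values, log2(FPKM + 1) of the 14839 features with at least 1 FPKM in at least 2 libraries was fitted by limma 3.58.1 (R 4.3.3; trend and robust moderation, all 8 libraries, group means), and 6419 features were not tested. P-values were adjusted by Benjamini-Hochberg over all features of a contrast, and called under 0.05. Both CDO1 and SELENBP1 passed the filter, through the groups where they are high. Differences on this scale understate changes of low genes. A further 298 features were named through RefSeq accessions (assembly ARS-UCD2.0, names only). No pair of libraries held identical values.

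The genes and lists were chosen with earlier results of these data known. Named pathway genes were the enzymes and carriers next to both genes and up to 3 per list with the smallest p in each contrast with SCNT; neighbours were the 2 nearest on each side.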

Additional observations from a re-analysis of the deposited data

How the results depend on the processing

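The 16 alternatives were another pseudocount, 2 other filters, 3 scalings, a fit of only the groups compared, a replicate block and each library left out. The tested difference of CDO1 between KDM4E-SCNT and IVF was called in 3 of them: with the filter of 5 FPKM (-1.36, adjusted p = 0.0425), after quantile normalization (-1.55, adjusted p = 0.0452) and without KDM4E-SCNT replicate 2. It ranged from -2.02 to -0.70 over the libraries left out, and that of SELENBP1 from -2.02 to -0.74. For the 71 sulfur and selenium genes, the number higher in KDM4E-SCNT than in SCNT was 8 under median-ratio scaling and 5 to 14 over the libraries left out, and the number lower was 3 to 12. The number higher in KDM4E-SCNT than in IVF was 3 without a filter, 2 in the fit of only those groups and 1 to 6 over the libraries left out, and the number lower was 0 to 3. The counts of IVF against SCNT stayed within 1.5 times. Of 30 named genes called in IVF, 25 kept their call in every alternative that tested them, and MOCOS among these was tested in 13 of the 16. Of 23 called in KDM4E-SCNT, 7 kept their call, and many others lost it without KDM4E-SCNT replicate 2, which leaves a single library in that group.

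Differences near 0 that were never called changed sign. In IVF, GOT1 was -0.032 after quantile normalization, -0.41 under median-ratio scaling and -0.22 to 0.18 over the libraries left out. TST was 0.035 with a pseudocount of 0.1, 0.074 with one total and -0.36 to 0.36 over the libraries left out, and SUOX -0.49 to 0.36. In KDM4E-SCNT, SUOX was -0.23 after quantile normalization, -0.27 under median-ratio scaling and -0.061 to 0.34 over the libraries left out, TST -0.36, -0.12 and -0.71 to 0.90, and PI4KB -0.23, -0.39 and -0.11 to 0.25. FMO1 was -0.069 to 1.31 over the libraries left out.

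Same-numbered IVF and SCNT libraries had correlations of 0.0602, 0.0934 and 0.0277, after centring on group means, and other IVF and SCNT pairs had -0.108 to 0.0702. Same-numbered KDM4E-SCNT and SCNT libraries had 0.00649 and 0.123. The labels do not say whether the numbers pair the samples, and values this small from so few libraries cannot decide it. With the replicate block, 2850 features were higher and 1402 lower in KDM4E-SCNT, 5167 and 3489 in IVF, the list had 11 higher and 10 lower in KDM4E-SCNT, and CDO1 between KDM4E-SCNT and IVF was -1.36 (adjusted p = 0.102). The block also ended the KDM4E-SCNT calls of GNMT (adjusted p = 0.0755), NFS1 (0.0726), TSTD2 (0.0898), TMED7 (0.0559) and POGZ (0.0918). The read depth is not given in the sources used here, so what it limits could not be measured.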

Other observations

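Among features without a symbol, chosen after their values were seen, one on chromosome 10 described as sulfide dehydrogenase like (ENSBTAG00000010365.4) stood at 10.47 and 15.43 FPKM in KDM4E-SCNT, 46.9, 28.12 and 18.84 FPKM in IVF and 2.59, 7.73 and 5.08 FPKM in SCNT. All KDM4E-SCNT and IVF libraries lay above all SCNT libraries, as for SELENBP1. It rose in IVF by 2.39 ± 0.413 (adjusted p = 0.000343) and was not called in KDM4E-SCNT (1.25 ± 0.462, adjusted p = 0.0531; 0.032 without SCNT replicate 2, 0.0432 without IVF replicate 1, 0.0382 with the filter of 5 FPKM and 0.038 with one total per library without mitochondrially encoded genes). A feature described as phospholipid hydroperoxide glutathione peroxidase (BGI_novel_G004194), a selenoprotein, was not called in KDM4E-SCNT (-0.10 ± 0.418) or IVF (-0.71 ± 0.374).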
